A study of Marchantia polymorpha with 6 samples.

Results

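Tandem arrays of like gene models were examined in thallus mRNA of Marchantia polymorpha, a liverwort whose dominant plant body, the thallus, is haploid. An array was taken as 3 or more gene models in a row on the same sequence that share a strand, a number of exon blocks of at least 2, and an exon length within 1.5 times of the previous model. Exon blocks are the exons of a model merged where they overlap. This structural rule, which uses no read count, gave 57 arrays with 197 models out of 19287 in the table. There were 42 arrays of 3 copies, 8 of 4 and 7 of 5 or more, and the largest held 8 copies.

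The libraries came from 2 genotypes, with 3 libraries each. Tak-1 is a male wild-type accession, and Mpbes1 carries a CRISPR-generated mutation, on the Tak-1 background as far as the labels tell, in the gene for the BES1 transcription factor. The labels do not say whether the Mpbes1 plants come from 1 mutant line. All plants were 30 days old and untreated, and they grew on agar in long days with a daily light period of 16 h. The labels give the tissue as thallus with apical notches, and the identifiers could not be paired with marker genes to check this.

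Tandem arrays arise when a stretch of DNA is copied next to itself, for example by unequal crossing over. The copies start with the same sequence and neighbourhood. Later they can keep a shared pattern of expression, diverge from each other or fall silent. BES1 belongs to the BES1/BZR1 family of DNA-binding proteins, which in flowering plants switch genes on and off downstream of the brassinosteroid receptor.

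The models carry identifiers of an older annotation that could not be paired with gene names or proteins, and no genome of that build was at hand. The arrays are therefore described by position, structure and expression, with no sequence and no gene function. Being of one family was judged from exon structure and not from sequence. The largest ratio of lengths between neighbours inside an array was 1.47, and the closest pair left out on length alone had a ratio of 1.52.

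Library totals ranged from 11597664 to 17741253 counts. Expression is given as CPM, read counts relative to the TMM-adjusted size of their library, and levels of different copies are compared as CPM per kb of exon. A count of 0 in a single library allows between 0.166 and 0.266 CPM, and a count of 0 over a genotype allows up to 0.0799 CPM for Tak-1 and 0.0704 CPM for Mpbes1, which covers counting error only. In these libraries of whole tissue, fewer cells that express a gene and less RNA per cell cannot be told apart. The array members took 1.75% ± 0.10 of the counted reads in wild type and 1.70% ± 0.06 in Mpbes1 (SD, n = 3).

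The arrays lay on 47 sequences, and 0 of them on the male sex chromosome. They spanned 6.24 to 73.1 kb with a median of 17.7 kb. Most members had few exon blocks and a short exon length, but the array rule compares both, so these traits are not independent of it. There were 30 arrays with 2 exon blocks, 15 with 3 and 12 with 4 to 9, and the median exon length of the members was 1410 bases against 1927 over all models. The median gap between neighbouring copies was 3.92 kb, against 3.62 kb over all neighbouring models of the table. Only 2 members overlapped another model, and 0 overlapped one on the opposite strand.

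Silent and active copies lay within the same array in 14 of the 57 arrays, not always as direct neighbours. A copy was called silent with at most 3 counts over the 6 libraries. It was called active with at least 10 counts in each of the 3 libraries of at least 1 genotype, and weak otherwise. These classes pool the genotypes, so a copy active in only 1 genotype counts as active, as for most copies on scaffold_35. Of the 197 members 110 were active (55.8%), 36 weak (18.3%) and 51 silent (25.9%). Among all 14890 models with at least 2 exon blocks, 71.2% were active and 18.1% silent, and among the 4033 models with 2 blocks 46.4% were active and 35.2% silent. The share of silent copies in the arrays thus lay between these 2 backgrounds. No read in any library was seen for 38 members.

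All members were active in 20 arrays, and all were silent in 6. A further 14 arrays held both silent and active copies, 21 silent and 18 active, and in 10 of these a lone active copy stood among silent or weak ones. In 13 arrays no member was active.

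Some copies were silent in only 1 genotype, counted here as at most 3 counts over its 3 libraries. There were 10 members silent in Tak-1 and active in Mpbes1 (5.08%, against 0.321% of all models). Of these, 6 lay in the array on scaffold_35 and 1 each on scaffold_25, scaffold_8, scaffold_41 and scaffold_105. The reverse was seen for 2 members (1.02%, against 0.373% of all models), on scaffold_30 and scaffold_92.

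**Figure D1:**
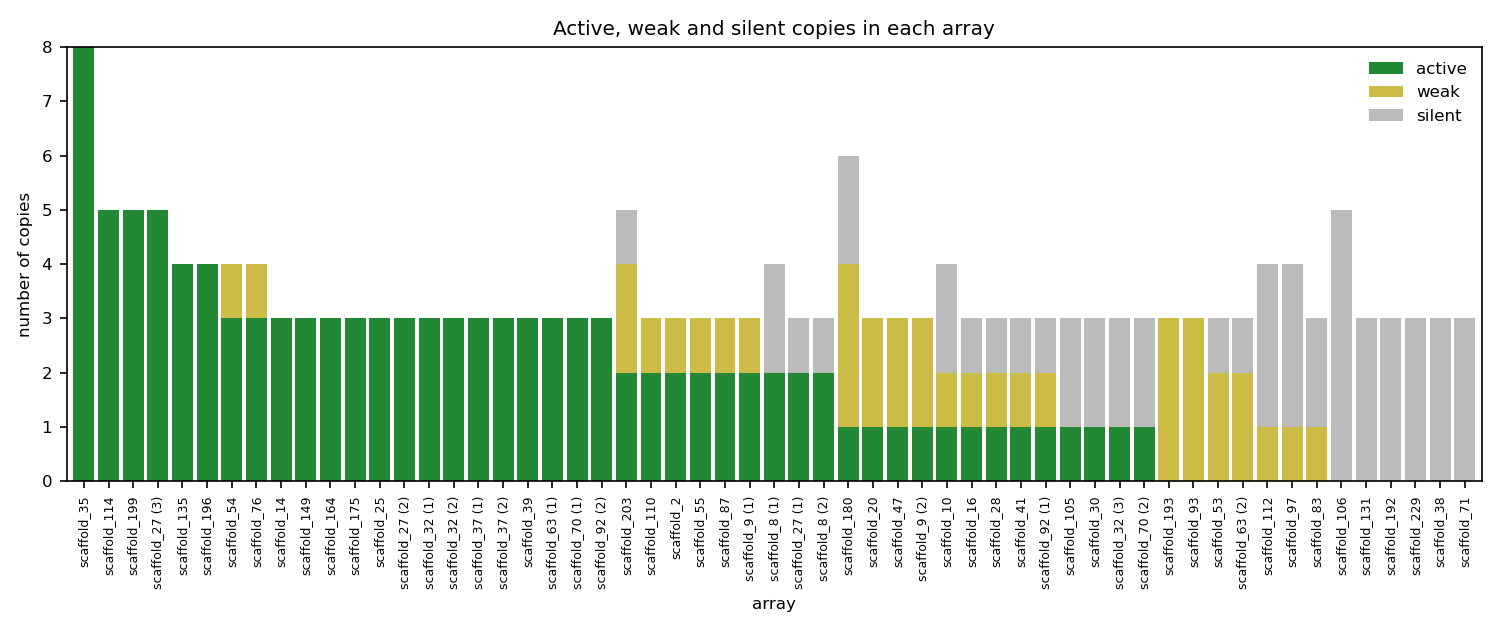
Number of active, weak and silent copies (y axis) in each of the 57 arrays (x axis, named by sequence, with a number in coordinate order where a sequence holds several). Bars are stacked counts of copies: 20 arrays are wholly active, 6 wholly silent, and 14 hold both kinds.

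The largest silent array lay on the minus strand of scaffold_106 from 562056 to 628106. Its 5 copies of 3 exon blocks and 1498 to 1608 bases had 0 counts in every library of both genotypes. The other silent arrays had 3 copies each and lay on scaffold_131, scaffold_192, scaffold_229, scaffold_38 and scaffold_71.

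The position of the active copy differed between the mixed arrays. On the minus strand of scaffold_28, from 695630 to 715683, the copy at the 5' end had 20.3, 19.0 and 18.0 CPM in the Tak-1 libraries and 13.7, 17.1 and 17.2 CPM in the Mpbes1 libraries. The middle copy had 2 counts in each genotype, and the last copy 0. The active copy made up 99.7% of the array's CPM per kb in wild type and 99.8% in Mpbes1, and it was not called changed (log2 fold change -0.25 ± 0.11, SE; edgeR adjusted p = 0.11).

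On the plus strand of scaffold_32, from 1586984 to 1615647, the last of 3 copies was the active one. It had 2.30, 6.71 and 2.93 CPM in wild type and 4.74, 4.71 and 3.10 CPM in Mpbes1, so the 2 genotypes overlapped, while the other copies had 2 and 0 counts in wild type and 0 in Mpbes1. The array of 6 copies on the plus strand of scaffold_180, from 115377 to 156519, had 2 silent and 3 weak copies before an active last copy. That copy had 2.08, 2.03 and 1.51 CPM in wild type and 3.64, 2.98 and 3.27 CPM in Mpbes1, with all mutant values above the wild-type ones (log2 fold change 0.80 ± 0.23, SE; edgeR adjusted p = 0.019). The call was lost with DESeq2 and without the third Tak-1 or the first Mpbes1 library.

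On the minus strand of scaffold_10, from 1923160 to 1934433, copies 1 and 2 had 0 counts in all libraries. They were the only copies of any array whose exon blocks had identical lengths and spacing, 1347 exon bases each. Whether reads of near-identical copies were discarded in the authors' counting is not given in the sources used here, and its part in any silent copy was not tested. Copy 4 of that array was active, at 24.6, 51.1 and 27.3 CPM in wild type and 11.3, 13.1 and 11.6 CPM in Mpbes1. All mutant values lay below the wild-type ones (log2 fold change -1.51 ± 0.30, SE; edgeR adjusted p = 0.0075). Copy 3, at 2.41 ± 1.67 CPM in wild type and 0.581 ± 0.132 CPM in Mpbes1 (SD, n = 3), did not pass the filter on low counts.

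The leading copy of an array was taken as the one with the highest CPM per kb, so any array with reads has one. In 39 arrays with at least 30 counts in each genotype, the copy with the highest CPM per kb was the same one in Tak-1 and Mpbes1 in 35. The leading copy held a median of 70.6% of the array's level in Tak-1 and 70.3% in Mpbes1. Among the 30 arrays of 3 copies with enough reads in Tak-1, it was the first copy in the direction of transcription in 11, the middle one in 13 and the last one in 6.

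Mutant and wild type were compared to see which transcripts differ without intact BES1 and, for the arrays, whether copies shift together. Calls were taken from edgeR's quasi-likelihood test over all models, where the adjusted p (Benjamini-Hochberg) lay below 0.05, and a change of at least 2-fold is such a call with a log2 fold change of at least 1 in size. The filter on low counts left 110 of the 197 members to be tested, 107 of them active. The other 87 had too few counts to pass it, among them a few copies classed as active.

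Array members changed more often than the models of the table as a whole. At least 2-fold calls were made for 54 of the 197 members (27.4%), and for 1442 of all 19287 models (7.48%). Of the 54, 23 rose and 31 fell. Among tested models alone the share over the whole table was 11.7%, with 4.55% that rose and 7.16% that fell at least 2-fold. Among the 110 tested members it was 49.1%, with 20.9% that rose and 28.2% that fell, but a weak copy can enter the tested set through the genotype in which it is high. Calls of any size numbered 70, of which 27 rose and 43 fell, or 63.6% of the tested members against 40.4% of all tested models (19.3% that rose and 21.1% that fell).

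The tested members had a lower median level than all tested models, 14.5 against 32.8 CPM. Models in no array, weighted to the members' classes of expression and block number, had at least 2-fold calls in 17.6%. The median log2 fold change of the tested members was -0.17 and the median of its size 1.04, against 0.01 and 0.23 over all tested models. Since copies of an array share a neighbourhood and may share sequence, they were not treated as independent, and no test was made over them.

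By structure, the members with 2 exon blocks went both ways, with 19 that rose and 15 that fell at least 2-fold among 57 tested. Copies of an array share their block number by the rule, so these are not independent genes. Of the 19 rises, 8 lay on scaffold_35, 3 on scaffold_25 and 2 on scaffold_87. Of the 15 falls, 3 and 5 lay in the neighbouring arrays on scaffold_27 that start at 1607951 and 1632109. Of all tested models with 2 blocks, 8.45% rose and 10.7% fell. Of the members with 4 or more blocks more fell than rose, with 1 that rose and 10 that fell among 27 tested, against 2.77% and 4.86% of all such models. The single rise was the first copy of the array on scaffold_203. The 10 falls lay in the arrays on scaffold_175, scaffold_196 and scaffold_54, on scaffold_32 from 1477952 and on scaffold_92 from 706370.

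**Figure D2:**
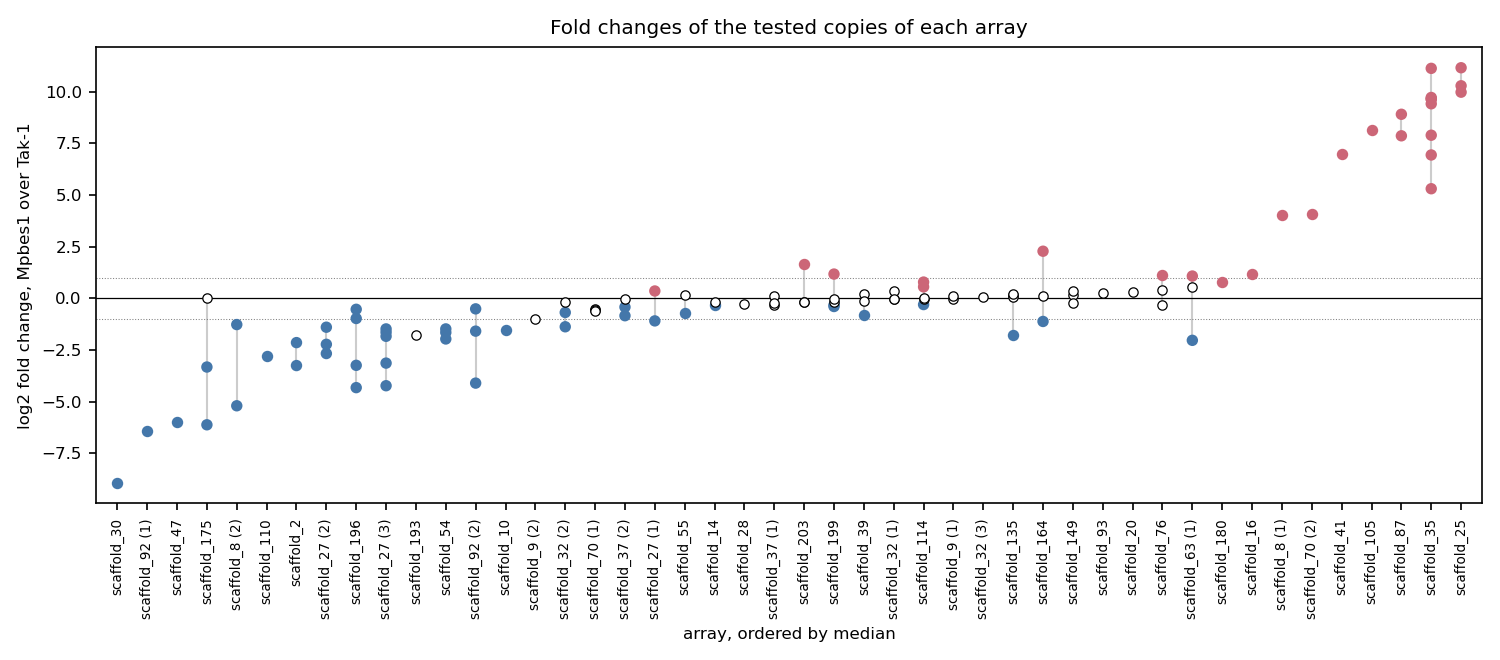
Log2 fold change of Mpbes1 over Tak-1 (y axis) for the tested copies of the 46 arrays with at least 1 of them (x axis, ordered by median). Filled points were called in edgeR (red higher, blue lower in Mpbes1), open points were not, grey lines join the lowest and highest copy, and dotted lines mark a 2-fold change. The arrays on scaffold_25, scaffold_35 and scaffold_87 stand at the top, with every tested copy at 5.31 or more, and arrays with filled points on both sides of 0 lie near the middle. Copies with 0 counts in a genotype are drawn at their fitted value, not at the lower bound.

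Tested copies of an array often shifted together. Of 29 arrays with at least 2 tested copies, 24 had a call. All tested copies were called higher in 3 arrays and lower in 7, and in 8 of these 10 arrays every change was at least 2-fold. The 3 arrays that rose, on scaffold_25, scaffold_35 and scaffold_87, had only 18, 57 and 24 counts over all copies in Tak-1. Nearly all their tested copies passed the filter only through Mpbes1. A tested copy there was thus all but bound to be called higher, and copies that stayed low were left untested. In 9 arrays some tested copies were called, all in 1 direction, and the others not. In 5 arrays calls went both ways, and in 5 there was no call.

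Of 59 pairs of neighbouring copies with both tested, both changed at least 2-fold the same way in 21 (35.6%) and opposite ways in 1 (1.69%). Over all 8299 tested pairs of neighbouring models in the table, the numbers were 191 (2.30%) and 47 (0.566%). Where at least 1 copy of a pair changed 2-fold, the other did the same in 21 of 34 array pairs (61.8%) and in 191 of 1455 pairs overall (13.1%). The 21 array pairs include those on scaffold_25, scaffold_35 and scaffold_87, where nearly all copies passed the filter only through Mpbes1. A shared rise in those pairs was all but fixed by the filter. Neighbouring pairs that meet the same rule of strand, blocks and length but lie in no array came closer to the array pairs. In these, both changed at least 2-fold the same way in 17 of 151 tested pairs (11.3%), or in 17 of the 40 with at least 1 such change (42.5%). Array copies did not, however, move by equal amounts. The median difference in log2 fold change between neighbours was 0.75 in the arrays and 0.34 over all pairs. The difference was at least 1 in 24 of the 59 array pairs (40.7%) and in 17.1% of all pairs. Its 95% interval excluded 0 in 49.2% of array pairs and 46.9% of all pairs. This interval took the 2 models of a pair as independent, although both were measured in the same libraries. It is too wide where copies vary in step between libraries, so these 2 shares cannot be set against each other. Tested array members had a lower median level and a larger median size of change than all tested models. Copies with 0 counts in a genotype entered with their fitted fold change, although such a fold is only a lower bound.

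**Figure D3:**
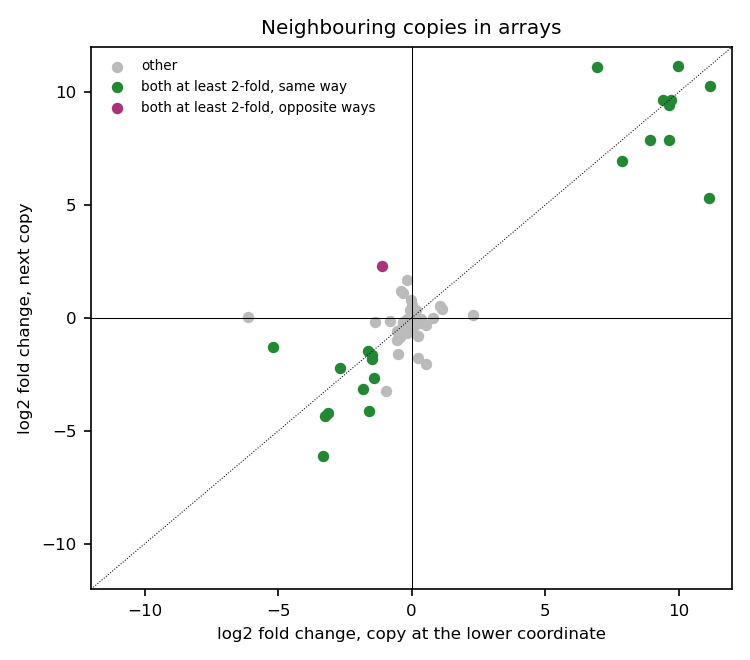
Log2 fold change of Mpbes1 over Tak-1 for 59 pairs of neighbouring copies in arrays, the copy at the lower coordinate on the x axis and the next copy on the y axis; the dotted line marks equal change. Green pairs (21) changed at least 2-fold the same way and 1 purple pair opposite ways.

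In 6 arrays a member belonged to a stretch of 4 or more neighbouring genes that changed at least 2-fold the same way. Without those 6 arrays, 31 of the remaining 171 members changed at least 2-fold (18.1%), 12 up and 19 down. Pairs of neighbours that both changed at least 2-fold in 1 direction then numbered 5 in place of 21, and arrays with all tested copies called the same way 5 in place of 10. The 6 arrays were picked by these same calls, so lower numbers were bound to remain. The numbers show only how far the counts rest on these arrays.

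The arrays that rose as a whole were close to silent in Tak-1. On scaffold_35, from 841433 to 914493 on the plus strand, 8 copies of 2 exon blocks and 572 to 815 bases together reached at most 1.69 CPM in a Tak-1 library. In the Mpbes1 libraries the sums were 281, 164 and 237 CPM. The groups were far apart, and the mean rose 149-fold, from 1.52 ± 0.24 to 227 ± 59.5 CPM (SD, n = 3).

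Every one of the 8 copies on scaffold_35 was called higher. Copies 2 and 7 had 0 counts in wild type and were at least 93.8-fold and 262-fold higher in Mpbes1, where they reached 7.49 ± 2.26 and 21.0 ± 5.43 CPM (SD, n = 3). Copies 1, 3 and 4 had 1 count each over the Tak-1 libraries and 1288, 1051 and 1210 counts in Mpbes1. Copy 8, at the 3' end, had the highest level in the wild type.

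That last copy had 1.34, 0.780 and 1.24 CPM in wild type and 56.6, 34.8 and 42.8 CPM in Mpbes1 (log2 fold change 5.31 ± 0.26, SE; edgeR adjusted p = 6.5e-07). It held 74.2% of the array's CPM per kb in Tak-1. In Mpbes1 the leading copy was copy 5, with 21.5% of the level, at 0.246 ± 0.104 CPM in wild type and 59.3 ± 14.9 CPM in the mutant (SD, n = 3; log2 fold change 7.90 ± 0.36, SE; edgeR adjusted p = 1.2e-06). The second Mpbes1 library was the lowest of the mutant libraries for 8 of 8 copies, and the first was the highest for 7.

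The array on scaffold_25, on the minus strand from 675210 to 682599, had the largest rise of a summed level among all arrays, 1421-fold. Its 3 copies of 2 exon blocks and 972 to 1075 bases summed to 0.519, 0.546 and 0.355 CPM in wild type and 653, 539 and 827 CPM in Mpbes1. The copies were nearly even in the mutant, at 245 ± 51.5, 204 ± 37.7 and 224 ± 57.5 CPM (SD, n = 3). In Tak-1 they had 7, 3 and 8 counts over the 3 libraries. Copies 1 and 3 had log2 fold changes of 10.29 ± 0.30 and 9.98 ± 0.38 (SE; edgeR adjusted p = 8.2e-08 and 1.4e-06).

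On scaffold_87, from 121810 to 128799 on the plus strand, 2 of 3 copies rose and the first stayed near the limit of detection. The middle copy, Mapoly0087s0015.v3.1, had 0.371, 0.312 and 0.266 CPM in wild type and 170, 126 and 178 CPM in Mpbes1 (log2 fold change 8.91 ± 0.24, SE; edgeR adjusted p = 8.2e-09). The last copy, Mapoly0087s0016.v3.1, had 0.148, 0.546 and 0.266 CPM in wild type and 77.1, 63.6 and 89.4 CPM in Mpbes1 (log2 fold change 7.87 ± 0.26, SE; edgeR adjusted p = 2.4e-08). These were the members that rose with the smallest p. The first copy of this array, 812 bases long, had 0 counts in wild type and 4 in Mpbes1.

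**Figure D4:**
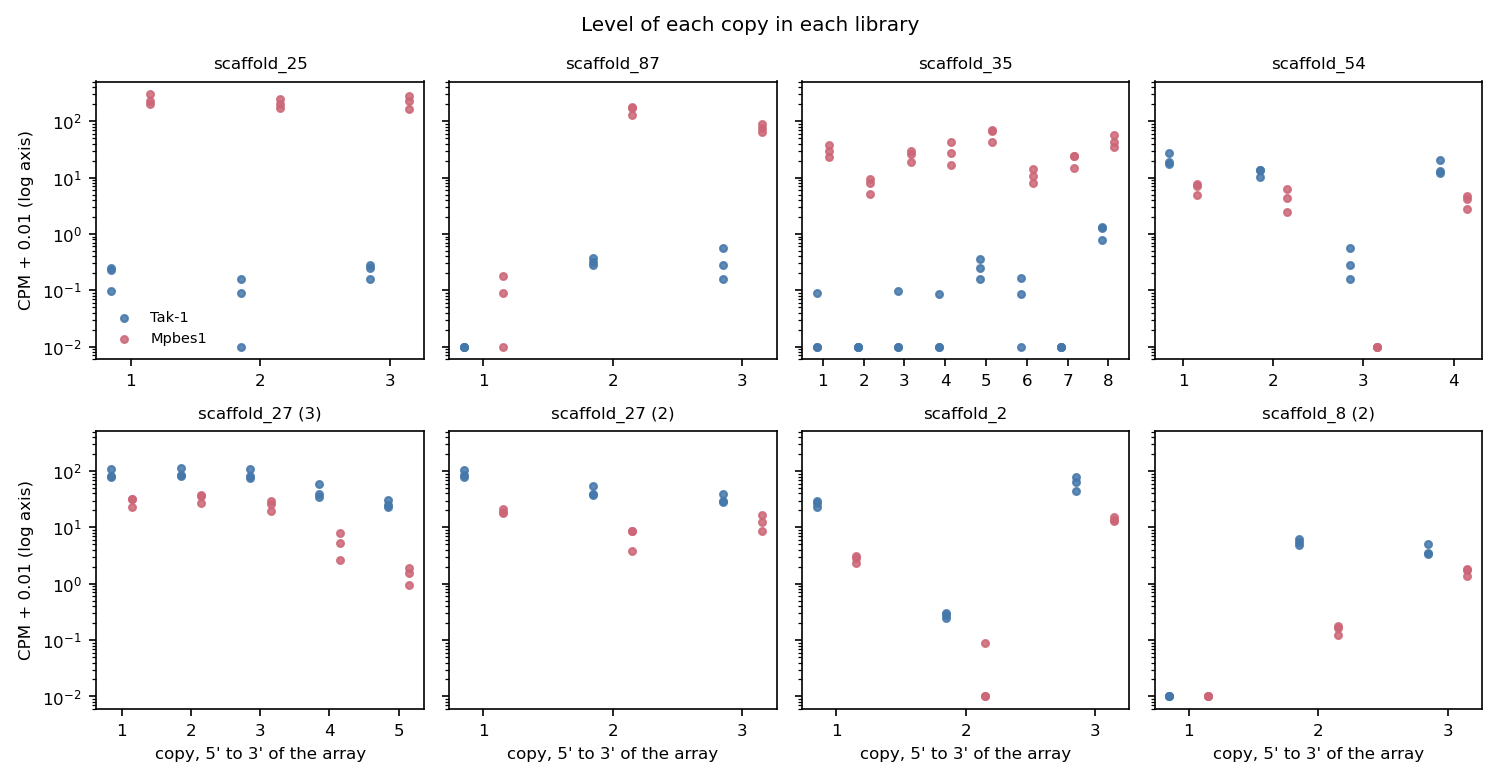
CPM + 0.01 on a log axis for every copy (x axis, in the direction of transcription) in each of the 3 Tak-1 (blue) and 3 Mpbes1 (red) libraries, for the 8 arrays with at least 2 tested copies in which every tested copy changed at least 2-fold the same way. Points at 0.01 are counts of 0. On scaffold_25, scaffold_35 and scaffold_87 the mutant points of the changed copies lie far above the wild-type ones, while the falls differ in size between copies, as for copies 4 and 5 of scaffold_27 (3) against copies 1 to 3.

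Other arrays rose through 1 copy while the rest were silent in both genotypes. On scaffold_70, from 1064509 to 1076937, the middle of 3 copies had 0.445, 0.468 and 0.533 CPM in wild type and 10.9, 6.83 and 7.26 CPM in Mpbes1 (log2 fold change 4.08 ± 0.30, SE; edgeR adjusted p = 1.8e-06). Its neighbours had 0 and 1 counts over all libraries. On scaffold_105, from 277482 to 294774, the 5' copy had 0 counts in wild type and 2.96, 3.22 and 1.94 CPM in Mpbes1, at least 33.9-fold higher, and the other copies had 0 counts throughout.

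Rises of a single tested copy were also found on scaffold_41, scaffold_16 and scaffold_8. The first copy of the array on scaffold_41 from 1349762 to 1357928 had 0 counts in wild type and 1.16 ± 0.32 CPM in Mpbes1 (SD, n = 3), at least 14.5-fold higher, beside a weak copy with 1 and 11 counts and a silent one. On scaffold_16, from 1429031 to 1442451, the middle copy went from 3.84 ± 1.43 to 8.79 ± 1.95 CPM (SD, n = 3; log2 fold change 1.20 ± 0.28, SE; edgeR adjusted p = 0.0065) beside a weak and a silent copy. On scaffold_8, from 1415343 to 1446984, copy 2 had 2 counts in wild type and 43 in Mpbes1, and copies 3 and 4 were silent. Copy 1 of that array, which did not pass the filter on low counts, had 21 counts in wild type and 37 in Mpbes1, where its level of 0.908 ± 0.262 CPM was close to the 1.04 ± 0.22 CPM of copy 2 (SD, n = 3).

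Most arrays that fell kept reads in the mutant. On scaffold_27 a group of 3 copies on the minus strand, from 1607951 to 1628521, lay back to back with a group of 5 on the plus strand, from 1632109 to 1662748, with 0 models between them. All 8 copies have 2 exon blocks and all fell at least 2-fold. The group of 3 summed to 196, 147 and 153 CPM in wild type and 46.3, 39.8 and 30.4 CPM in Mpbes1. The group of 5 summed to 419, 306 and 301 CPM in wild type and 103, 108 and 72.9 CPM in Mpbes1, and in neither group did the genotypes overlap.

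Within the group of 5 on scaffold_27 the falls differed between copies. Copies 1, 2 and 3 had log2 fold changes of -1.64 ± 0.16, -1.48 ± 0.17 and -1.83 ± 0.19 (SE), and copy 4 one of -3.13 ± 0.38. The last copy, Mapoly0027s0172.v3.1, fell most, from 30.5, 25.1 and 23.3 CPM in the Tak-1 libraries to 1.52, 1.88 and 0.942 CPM in the Mpbes1 libraries (log2 fold change -4.23 ± 0.21, SE; edgeR adjusted p = 9.9e-08). The 2 copies farthest from the start of this group were thus also those with the lowest CPM per kb in Tak-1, 60.6 and 45.9, against 96.7 to 140 for the others.

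In the group of 3 on scaffold_27 the copy nearest to the centre of the pair of arrays had the highest level, at 89.6 ± 12.3 CPM in wild type and 19.3 ± 1.67 CPM in Mpbes1 (SD, n = 3; log2 fold change -2.22 ± 0.11, SE; edgeR adjusted p = 1.2e-07). The other copies had log2 fold changes of -2.67 ± 0.30 and -1.39 ± 0.23 (SE). Within each genotype the copies varied from library to library largely in step. The first Tak-1 library was the highest of its genotype and the third Mpbes1 library the lowest of its genotype for all 8 copies.

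On scaffold_2, from 3504340 to 3572567, 3 copies of 3 exon blocks were spread over 68.2 kb. The first, Mapoly0002s0344.v3.1, fell from 22.6, 26.9 and 29.9 CPM to 3.13, 2.36 and 2.83 CPM (log2 fold change -3.25 ± 0.16, SE; edgeR adjusted p = 8.2e-08). With the last copy of scaffold_27 it was the member that fell with the smallest p. The third copy fell from 62.0 ± 16.6 to 14.1 ± 1.24 CPM (SD, n = 3), and the middle one had 10 counts in wild type and 1 in Mpbes1.

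Some arrays fell almost to the limit of detection. On scaffold_47, from 76164 to 100582, the middle copy had 42.8, 89.3 and 55.0 CPM in wild type and 0.0846, 0.471 and 1.99 CPM in Mpbes1 (log2 fold change -5.96 ± 0.60, SE; edgeR adjusted p = 0.00059). The groups did not overlap, but each spread widely. Its weak neighbours had 45 and 5 counts in wild type and 1 and 0 in Mpbes1.

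On scaffold_30, from 81155 to 93135, the last copy had 4.16, 4.60 and 4.80 CPM in wild type and 0 counts in Mpbes1, at least 64.2-fold lower, and its neighbours were silent in both genotypes. On scaffold_92, from 584571 to 602744, the first copy went from 4.83 ± 1.09 CPM to 2 counts over the mutant libraries. The third copy of that array, with 24 counts in wild type and 25 in Mpbes1, was too weak to be tested. On scaffold_8, from 1935850 to 1952877, copy 2 fell from 5.50 ± 0.72 to 0.146 ± 0.031 CPM and copy 3 from 3.98 ± 1.01 to 1.64 ± 0.25 CPM (SD, n = 3). Their log2 fold changes were -5.20 ± 0.33 and -1.27 ± 0.26 (SE; edgeR adjusted p = 6.6e-07 and 0.0029), so that the leading copy changed from copy 2 in Tak-1 to copy 3 in Mpbes1.

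On scaffold_54, from 1169624 to 1201827, copies of 7 exon blocks fell together, and this array is singled out after its values were seen. The 3 tested copies, numbers 1, 2 and 4, had log2 fold changes of -1.65 ± 0.21, -1.48 ± 0.29 and -1.96 ± 0.25 (SE). Copy 3, which was weak, had 12 counts in wild type and 0 in Mpbes1. The array on scaffold_196, from 86613 to 106186, chosen in the same way, showed a gradient. Its 4 copies on the minus strand, from the 5' to the 3' end of the array, had log2 fold changes of -4.32 ± 0.54, -3.24 ± 0.50, -0.97 ± 0.22 and -0.53 ± 0.15 (SE). The last copy held 70.6% of the array's CPM per kb in wild type and 82.5% in Mpbes1.

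A graded fall was also seen on scaffold_92 from 706370 to 733875, where 3 copies have 8 exon blocks. Copy 1 had 711, 465 and 508 CPM in wild type and 422, 417 and 348 CPM in Mpbes1 (log2 fold change -0.51 ± 0.16, SE; edgeR adjusted p = 0.035), a call that was lost without the third Tak-1 library or any Mpbes1 library, with library sizes only and with no filter on low counts. Copies 2 and 3 fell more, with log2 fold changes of -1.58 ± 0.20 and -4.10 ± 0.45 (SE; edgeR adjusted p = 0.00056 and 0.00029). Copy 3 went from 19.4 ± 8.33 to 1.10 ± 0.54 CPM (SD, n = 3).

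The array on scaffold_175, from 264289 to 277093, had the largest difference between neighbours. Copy 2 fell from 20.6, 32.7 and 31.0 CPM in Tak-1 to 0.169, 0.0785 and 0.776 CPM in Mpbes1 (log2 fold change -6.12 ± 0.42, SE; edgeR adjusted p = 1.4e-05). Copy 1, in the 5' direction, had 3.41, 5.62 and 2.75 CPM in wild type and 2.54, 4.08 and 5.26 CPM in Mpbes1, and the groups overlapped (log2 fold change 0.03 ± 0.32, SE; edgeR adjusted p = 0.95). Copy 3 fell from 62.8 ± 17.9 to 5.94 ± 3.66 CPM (SD, n = 3).

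Copies of the same array changed at least 2-fold in opposite directions in 2 arrays. On scaffold_164, from 24046 to 40666, copy 1 had 1.63, 1.09 and 1.24 CPM in wild type and 0.508, 0.628 and 0.665 CPM in Mpbes1 (log2 fold change -1.12 ± 0.34, SE; edgeR adjusted p = 0.022). Copy 2 had 0.960 ± 0.448 CPM (SD, n = 3) in wild type and 5.16, 4.79 and 4.49 CPM in Mpbes1 (log2 fold change 2.28 ± 0.30, SE; edgeR adjusted p = 0.00016). Copy 2 took 24.5% ± 10.1 of the array's CPM per kb in wild type and 70.5% ± 3.1 in Mpbes1 (SD, n = 3), and became the leading copy. The fall of copy 1, from 50 to 26 counts, was not called with DESeq2 or without the first Tak-1, the first Mpbes1 or the second Mpbes1 library.

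On scaffold_63, from 196403 to 203536, copy 3 had 22.3, 26.8 and 25.5 CPM in wild type and 54.3, 51.4 and 52.0 CPM in Mpbes1 (log2 fold change 1.08 ± 0.09, SE; edgeR adjusted p = 2.9e-06). Copy 1 went the other way, from 2.06 ± 0.65 to 0.525 ± 0.222 CPM (SD, n = 3; log2 fold change -2.03 ± 0.40, SE; edgeR adjusted p = 0.0023). Copy 2 lay between, at 9.90 ± 4.77 and 14.5 ± 3.72 CPM, with overlapping groups and no call, though it was called higher without the second Tak-1 library. The leading copy stayed the same.

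In the other 3 arrays opposite changes were called that were not both 2-fold. On scaffold_27, from 191417 to 207653, copy 1 rose from 14.5 ± 0.94 to 18.6 ± 0.64 CPM and copy 3 fell from 5.13 ± 1.19 to 2.38 ± 0.25 CPM (SD, n = 3), on the 2 sides of a silent copy. The rise was not called without the first Mpbes1 library.

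The array on scaffold_203, from 30035 to 48520, had no call in the falling direction but changed in makeup. Its copy 1 rose from 2.93 ± 0.96 to 9.48 ± 2.19 CPM (SD, n = 3; log2 fold change 1.67 ± 0.26, SE; edgeR adjusted p = 0.00054), and its share of the array's CPM per kb went from 11.6% ± 3.3 to 32.7% ± 6.2.

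The remaining 2 arrays with calls both ways had the highest summed levels of all. On scaffold_199, from 115615 to 135905 on the plus strand, 5 active copies of 2 exon blocks summed to 10244 ± 881 CPM in wild type and 8909.6 ± 482 CPM in Mpbes1 (SD, n = 3). Copies 1 and 4 carried most of the reads and fell slightly, with log2 fold changes of -0.32 ± 0.09 and -0.39 ± 0.09 (SE; edgeR adjusted p = 0.013 and 0.0045). The fall of copy 1 was not called without the first Mpbes1 library.

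The last copy on scaffold_199 rose in the mutant. It had 341, 292 and 531 CPM in wild type and 785, 876 and 969 CPM in Mpbes1 (log2 fold change 1.18 ± 0.22, SE; edgeR adjusted p = 0.0053). Its share of the array's CPM per kb went from 3.40% ± 0.82 to 8.96% ± 0.65 (SD, n = 3), while copy 1 remained the leading copy at 42.7% ± 0.6 and 39.4% ± 0.4. Copies 2 and 3 had log2 fold changes of -0.16 ± 0.08 and -0.05 ± 0.10 (SE) and were not called.

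On scaffold_114, from 581517 to 599141 on the minus strand, 5 active copies of 3 exon blocks summed to 4219 ± 512 CPM in wild type and 4424 ± 151 CPM in Mpbes1 (SD, n = 3), with overlapping groups. Copies 2 and 4 rose. Copy 4 had 317, 291 and 387 CPM in wild type and 524, 598 and 600 CPM in Mpbes1 (log2 fold change 0.79 ± 0.11, SE; edgeR adjusted p = 0.00020). Copy 2 had 222, 203 and 275 CPM in wild type and 329, 357 and 342 CPM in Mpbes1 (log2 fold change 0.56 ± 0.10, SE; edgeR adjusted p = 0.0017).

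The leading copy on scaffold_114, copy 5, was not called, at 2485 ± 266 and 2434 ± 88.4 CPM (SD, n = 3; log2 fold change -0.03 ± 0.09, SE). Copy 1, at a log2 fold change of -0.30 ± 0.11 (SE) and an edgeR adjusted p of 0.043, was called lower, but 5 of the 6 fits that left out a library and the fit with library sizes only lost the call. The sum over the array therefore hid shifts between copies. Copy 4 went from 9.67% ± 0.28 to 15.8% ± 0.9 of the array's CPM per kb, and copy 5 from 58.1% ± 0.8 to 53.7% ± 0.4 (SD, n = 3).

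**Figure D5:**
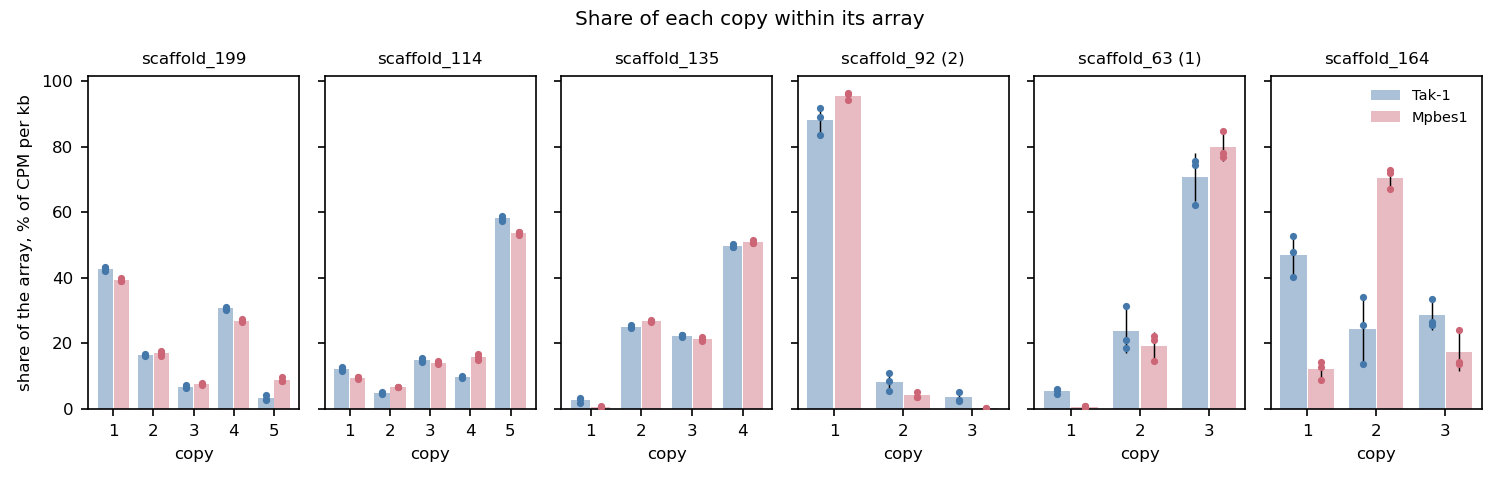
Share of each copy in its array's CPM per kb (y axis, percent) in Tak-1 (blue) and Mpbes1 (red), for the arrays with the highest summed levels that were expressed in both genotypes and those with 2-fold changes in both directions. Bars are means, lines the SD and points the 3 libraries. The bars differ little on scaffold_135, copy 5 gains on scaffold_199, and copy 2 overtakes copy 1 on scaffold_164.

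On scaffold_135, from 446912 to 464651, the array of 4 copies summed to 582 ± 9.25 CPM in wild type and 630.1 ± 111 CPM in Mpbes1 (SD, n = 3). Its 3 abundant copies were not called, with log2 fold changes of 0.05 to 0.22, except copy 2 without the first Mpbes1 library. The fourth, copy 1 at the 5' end, fell from 11.1, 20.7 and 19.0 CPM to 3.55, 3.85 and 6.92 CPM (log2 fold change -1.78 ± 0.32, SE; edgeR adjusted p = 0.0030).

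Of the 5 arrays with no call, 4 had at least 3 tested copies. They lay on scaffold_149 from 46518 to 62566, scaffold_32 from 755097 to 769830, scaffold_37 from 878882 to 890109 and scaffold_70 from 739055 to 754271. On scaffold_32 the sum was 42.4 ± 6.46 CPM in wild type and 41.9 ± 10.1 CPM in Mpbes1 (SD, n = 3). On scaffold_70 the 3 copies had log2 fold changes of -0.51 ± 0.23, -0.56 ± 0.28 and -0.59 ± 0.49 (SE), close to each other, and the Tak-1 libraries spread from 72.1 to 150 CPM in sum. The copy at 739055 was called lower with DESeq2, and it and the middle copy without the first Tak-1 library. The middle copy on scaffold_37 was called lower without the first Tak-1 or the third Mpbes1 library. A missing call does not show that these copies kept their level.

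The models next to an array, before or after it by coordinate, changed with it in some places. Of the 6 models that flank the 3 arrays with all tested copies raised at least 2-fold, 2 rose at least 2-fold and 0 fell. The model after the array on scaffold_35, from 916529 to 917577, has 3 exon blocks and 887 bases on the same strand, and it went from 0.052 ± 0.090 to 58.0 ± 15.4 CPM (SD, n = 3). The model before that array, from 834833 to 836630, had 0 counts in all libraries. The model after the array on scaffold_25, from 683800 to 686950 on the opposite strand, had 0 counts in wild type and 1.53 ± 0.51 CPM in Mpbes1 (SD, n = 3), and the model before it fell less than 2-fold (log2 fold change -0.41; edgeR adjusted p = 0.0054). On scaffold_87 the model before, on the opposite strand, was not called (log2 fold change -0.10; edgeR adjusted p = 0.51), and the model after had 0 counts.

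Of the 9 flanking places of the 5 arrays with all tested copies at least 2-fold lower, 4 had such a fall and 1 a rise. On scaffold_27 2 of the 4 were the facing copies of the back-to-back groups themselves. The model after the group of 5, from 1675721 to 1687390 on the opposite strand with 12 exon blocks, rose from 23.2 ± 4.44 to 46.8 ± 2.05 CPM (SD, n = 3; log2 fold change 1.01; edgeR adjusted p = 7.4e-05). On that side the fall ended at the last copy of like structure. The model after the array on scaffold_54, from 1210850 to 1213783, also has 7 exon blocks and fell from 6.10 ± 4.07 to 0.756 ± 0.885 CPM, and that after the array on scaffold_8, from 1970816 to 1972738, has 2 and fell from 16.8 ± 2.42 to 1.53 ± 0.17 CPM (SD, n = 3; edgeR adjusted p = 0.028 and 1.5e-07).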

How the data were processed

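The deposited values are raw counts of reads per gene model, whole numbers with no normalization, beside each model's exon length. Per the submitters' processing notes, the tools included featureCounts 1.5.1, STAR 2.5.2b and edgeR. For 3 points, namely the genome build, how multi-mapping reads were handled and whether strand was used, the answer is not given in the sources used here. The libraries were stranded poly(A) libraries, per the labels' protocols. Where copies are near-identical, their reads could have been dropped or split, which bears on every comparison between copies. Positions are printed as deposited.

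All 19287 models entered edgeR 4.0.16 (R 4.3.3; filterByExpr, TMM, robust quasi-likelihood F test, genotype as the only term, 12313 models tested, Benjamini-Hochberg over these). Standard errors derive from the F statistic. The fit was tested on simulated data. P-values measure the spread among the 3 libraries per genotype. A fold against 0 counts is a lower bound, the other genotype's mean over the level of 3 counts over the genotype at 0. The design text calls the samples of a genotype independent biological replicates, and no 2 libraries were duplicates (chi-square per degree of freedom at least 3.03 within a genotype).

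The arrays, lists and limits were chosen with earlier results of these data known. The arrays described singly are, with ties kept, the 5 with most copies, the 5 with the highest summed level, the 6 largest rises and falls of the sum among arrays with at least 5 CPM in a genotype, those changed at least 2-fold both ways, the 5 largest with silent and active copies, and the 5 most abundant with at least 3 tested copies and no call. Identifiers are printed for the 2 members with the smallest p in each direction. Of these identifiers 0 occur in the reference table at hand, of assembly MpTak2_v7.1, so no array was grouped by gene family. Alternatives were other scalings and filters, DESeq2 1.42.0, a replicate block, leaving out each library and other array rules.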

Additional observations from a re-analysis of the deposited data

How the results depend on the processing

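Of 155 alternative values for the counts over arrays, 124 stayed within 1.5 times of the reported count. Scaling (RLE or library size only), the filters, DESeq2 and the replicate block did so for all counts but the arrays with calls in both directions, which numbered 2 with at least 5 CPM in 3 libraries against 5. That count was 3 to 5 with 1 library left out, and it was 3 without the first Tak-1, the first Mpbes1 or the second Mpbes1 library. The replicate block gave 73 called members in place of 70, and the same 23 rises, 31 falls and 21 pairs by number; same-numbered libraries deviated together weakly or not (r = 0.17, -0.03 and 0.14), so the numbers were not taken as pairs; not every library correlated best with its own number. The block also called the copies at 739055 on scaffold_70, 52513 on scaffold_149 and 882396 on scaffold_37. With 1 library left out 66 to 74 members were called, 23 to 25 rose and 32 to 34 fell at least 2-fold. Other array rules change how many models are counted. With the tighter length limit, 46 members were called, 15 rose and 19 fell at least 2-fold, 12 pairs changed together, 21 members were silent and 5 arrays mixed. With at least 4 models per array these were 32, 12, 12, 13, 18 and 4, with 43 active members, 4 arrays called the same way throughout and 2 called both ways. With no limit on length, 111 members were called, 48 fell at least 2-fold, 8 arrays were called both ways, 122 members were silent, 206 active and 41 arrays mixed. With models of 1 block allowed, 104 members were silent and 23 arrays mixed. Leaving out the 6 arrays in stretches of 4 or more changed neighbours was chosen after seeing the data, and it drops arrays by their calls. Among the rest, 12 members rose and 19 fell at least 2-fold, 5 pairs changed together and 5 arrays were called the same way throughout. Of 941 alternative fold changes of single copies 0 reversed a call, 21 lost one and 10 gained one, and 528 of 528 summed levels moved by less than 1 SD. Depth limits statements on copies up to 0.266 CPM.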
